A study of Mus musculus with 2 samples.

Results

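Accessible chromatin inside exons, away from gene starts, was described in the left cerebral cortex of the mouse. DNase-seq, in which the nuclease DNase I cuts DNA where proteins leave it exposed, had been run on 36-day-old females of the F1 cross B6CASTF1/J. There were 2 libraries, numbered as biological replicates 1 and 2 in the labels, and no second group was available for comparison. The labels number the females and the tissue samples separately but give both libraries the same donor identifier. They are called 2 animals here on the strength of the numbering, and if they were 1 animal the spread between them would be technical. The exonic regions were rows of the peak list of replicate 1 that overlapped a row of the peak list of replicate 2 by at least 1 bp, had their centre over 1 kb from every annotated transcription start, and had that centre in an exon of a protein-coding gene. Of the 69208 rows of replicate 1, 51642 (74.6%) overlapped a row of replicate 2, and 1799 of these were exonic. Taken from the other side, 74.3% of the rows of replicate 2 overlapped replicate 1, and 1794 were exonic. Of the 1799 regions, 938 had their centre in coding sequence, 616 in a 3′ untranslated region (UTR) and 44 in a 5′ UTR. The other 201 lay in exons that only transcripts with no coding sequence use. They fell in 1523 genes. The rule reads position and overlap, and the overlap also selects on height and footprints. Without it the median height of coding regions was 0.894 in replicate 1 and 0.757 in replicate 2, against 1.23 and 0.942 with it. The share of coding regions with a footprint in both libraries was 50.6% and 59.2% without it, against 74.7% and 73.5% with it. Heights and footprints below thus describe regions strong enough to be called in both lists.

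The codons of an exon specify protein, and the same bases can be bound by transcription factors, in which case a mutation may touch both functions. A 3′ UTR is the part of the messenger RNA after the stop codon, known for sites that set RNA stability and location, and its DNA can hold enhancers and sites of CTCF, the zinc finger protein that anchors chromatin loops and insulates neighbouring domains. A footprint is a short stretch inside an accessible region that was cut less than its surroundings, as happens where a protein covers the DNA.

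The tissue was cortex with its neurons and glia together, so fewer cells with an open region and a weaker opening in each cell cannot be told apart. Promoter regions called in both libraries were present at 8 of 8 marker genes of cortical excitatory neurons, 3 of 4 of astrocytes, 2 of 4 of oligodendrocytes and 1 of 4 of microglia. None of the 8 markers of other organs had one. No read totals were used here, so depth is unknown, and peak heights are the authors' own signal values in a scale that was not stated for either library. With 2 libraries of 1 group an exact paired permutation test between parts of the genome could not go below p = 0.5, so no test was run and every value below describes these libraries. Errors are SDs over the libraries (n = 2), each supplying the rows in turn. Because both sets of rows obey the same overlap rule, these SDs understate the spread between animals.

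Sequences with a match to the CTCF consensus are shown first. CTCF was chosen because its matches nearly all overlapped footprints, although shorter motifs matched more exonic regions. For every motif an overlap of 1 bp counted, so a footprint need not span the match. The windows below are the 6 coding and 3 3′ UTR regions with the highest peaks among those with a footprint over the match in both libraries, less 1 in Epg5, for which the sequence is not shown. Each is 30 bases of GRCm38 (mm10), 5′ to 3′ on the strand of the match, with the 12-base match to the CTCF consensus in capitals.
Hey1 coding sequence, chr3:8664683-8664712, plus strand: cccaagccgCCACTAGGGGGCgctcgcaag
Crh coding sequence, chr3:19694055-19694084, minus strand: cctcggtggCCACCAGGGGGCgctggagag
Dgki intron beside coding exon 4, chr6:37097521-37097550, plus strand: acacactcgCCAGCAGGTGGCgctcgctta
Pgls coding sequence, chr8:71596108-71596137, minus strand: gtccaggaaCCAGCAGAGGGCgcccgtgcg
Synpo2l coding sequence, chr14:20661153-20661182, minus strand: ttcatgcagCCACTAGGGGGCaggagttac
Skap2 3′ UTR, chr6:51858059-51858088, minus strand: cctaagtggCCAGCAGATGGCagcagcttg
Dand5 3′ UTR, chr8:84815722-84815751, minus strand: cgcttttagCCACTAGGTGGCaccgcgtcc
Frmd8 3′ UTR, chr19:5850355-5850384, minus strand: cagctgtgaCCAGCAGGGGGCagctgagcc
The Dgki match lies in the intron just past the donor site of exon 4, within a region whose centre is coding, and the other 7 lie in the exon. Hey1 encodes a transcriptional repressor downstream of Notch, Crh the stress hormone corticotropin-releasing hormone, Dgki a lipid kinase and Pgls an enzyme of the pentose phosphate pathway.

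Coding sequence held more accessible regions per length than introns at every distance from a start. Over all sequence more than 1 kb from a start, coding sequence (25.2 Mb) held 37.1 ± 0.281 regions per Mb and 3′ UTRs (30.8 Mb) 20.1 ± 0.0689, against 13 ± 0.0411 in introns. The short 5′ UTR sequence (0.674 Mb) held 63.1 ± 3.15. These lengths leave out assembly gaps but keep repeats, where reads cannot always be assigned to a place. What part repeats had in the densities was not tested. The ratio to introns was 2.86 ± 0.0126 for coding sequence and 1.55 ± 0.0102 for 3′ UTRs. When each library was counted on its own, with no overlap required, the coding ratio was 3.29 in replicate 1 and 2.60 in replicate 2, and the 3′ UTR ratio 1.78 and 1.43. The order of coding sequence, 3′ UTR and intron was thus the same in both animals.

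Densities in coding sequence and in introns were both highest close to starts. Between 1 and 2 kb from a start, coding sequence held 71.0 regions per Mb by the rows of replicate 1 and 72.7 by those of replicate 2, against 24.2 and 23.9 in introns. Beyond 50 kb coding sequence held 23.1 and 22.1 per Mb, from 23 and 22 regions, against 7.98 and 7.86 in introns. The coding to intron ratio stayed between 2.07 and 3.04 over the 5 distance classes. It was 2.93 and 3.04 between 1 and 2 kb, 2.13 and 2.07 between 10 and 50 kb, and 2.89 and 2.81 beyond 50 kb. The 3′ UTRs behaved otherwise. Between 1 and 2 kb they held 23.9 regions per Mb in both libraries, level with introns, and their ratio to introns was 1.75 and 1.77 between 5 and 10 kb. Regions at the edge of the rule varied in height. The one in Dmpk lay above the upper quartile of exonic regions, 2.28 in replicate 1 and 1.43 in replicate 2. Just inside it lay regions in Fbll1 (1003 bp from a start, heights 1.09 in replicate 1 and 0.841 in replicate 2), Satb1 (1004 bp, 1.21 and 0.959) and Dmpk (1005 bp, 2.75 and 1.56), and just outside it regions in Pcf11 (1000 bp, 1.09 and 1.08), Gpr85 (1000 bp, 0.900 and 0.942) and Fgfr2 (990 bp, 1.38 and 1.29).

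**Figure D1:**
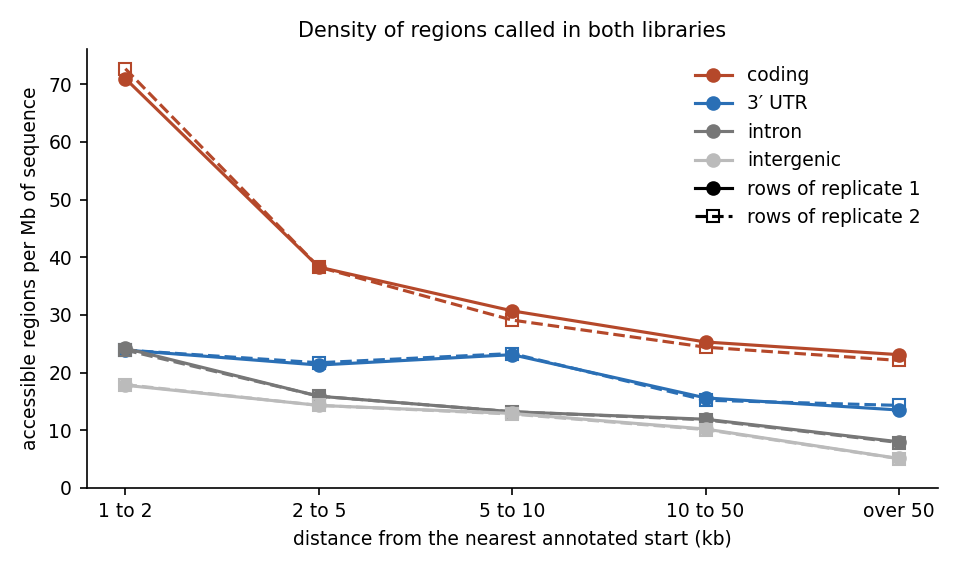
Accessible regions called in both libraries per Mb of sequence (y) by distance from the nearest annotated start (x), for coding sequence, 3′ UTRs, introns and intergenic sequence; filled points are rows of replicate 1 and open squares rows of replicate 2. Coding sequence lies above introns in all 5 classes, by 2.07 to 3.04 times, and its density falls most between the first class (71.0 and 72.7 per Mb) and the second (38.3 in both).

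Accessibility of coding sequence differed with the length of the coding part of the exon, and was highest at 300 to 1000 bp. Coding parts of up to 150 bp held 20.3 regions per Mb by the rows of replicate 1 and 19.7 by those of replicate 2. Those of 150 to 300 bp held 33.5 and 32.6, those of 300 to 1000 bp 64.9 and 64.2, and those over 1000 bp 55.1 and 56.2. Part of this came from long wide regions reported as several overlapping rows of a list. With each run of overlapping rows counted once, the 4 densities were 20.3, 33.2, 60.7 and 49.2 per Mb. Such rows share their sequence and are not separate sites: 102 of the 1799 exonic regions (5.67%) overlapped another row of the same list, 80 of them coding (8.53%) and 15 in 3′ UTRs (2.44%), against 1.57% of intronic rows.

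**Figure D2:**
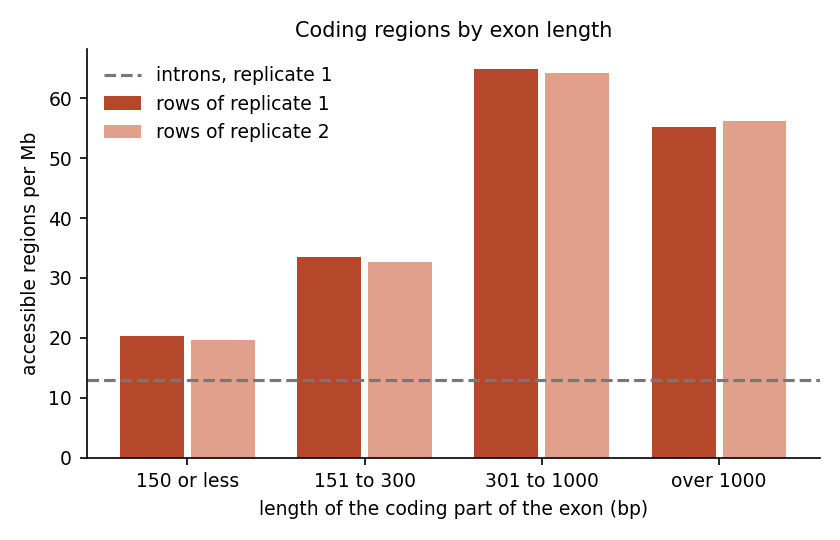
Coding regions per Mb of coding sequence over 1 kb from starts (y) by length of the coding part of the exon (x), by rows of replicate 1 (dark bars) and replicate 2 (light bars); the dashed line is the intron density of replicate 1, 13 per Mb. The shortest coding parts lie at 20.3 and 19.7 per Mb and those of 300 to 1000 bp at 64.9 and 64.2.

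Of the coding regions, 474 lay in internal exons (50.5%, median exon length 192 bp), 356 in last exons (38.0%, median 1880 bp), 53 in first exons and 55 in genes of a single exon. Among the 474 in internal exons, 130 (27.4%) lay wholly inside the exon. A further 100 reached across the acceptor splice site, 116 across the donor and 128 across both, so that most of these regions also held intron. Along the coding sequence the regions were more numerous toward its end: 155, 208, 265 and 310 had their centre in its 4 successive equal parts. The rule leaves out sequence within 1 kb of any start. In 3′ UTRs, 577 of 616 regions lay in the last exon, at a median of 864 bases after the stop codon in UTRs with a median length of 2180 bases, and 589 rows (95.6%) were exonic from end to end. They spread over the UTR, with 169, 172, 149 and 126 in its 4 successive equal parts.

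Coding regions were about as high as intronic ones, and 3′ UTR regions higher. The median height of coding regions was 1.23 by the rows of replicate 1 and 0.942 by those of replicate 2, and that of 3′ UTR regions 1.52 and 1.10, against 1.25 and 0.987 in introns and 2.21 and 1.63 at promoters. The libraries ranked the regions alike, with Spearman's rho of the heights 0.871 over 938 coding and 0.819 over 616 3′ UTR regions, against 0.796 over 13198 intronic ones, a description over regions of the same pair of libraries. After centring on the median of all shared regions, the log2 ratio of replicate 2 to replicate 1 had an SD of 0.44 in coding regions, 0.54 in 3′ UTRs and 0.54 in introns. Of the coding rows of replicate 1, 58.6% were called in both animals, and 70.4% of those of replicate 2, against 67.2% and 64.2% in introns. The order of coding and intronic rows was opposite in the 2 libraries.

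**Figure D3:**
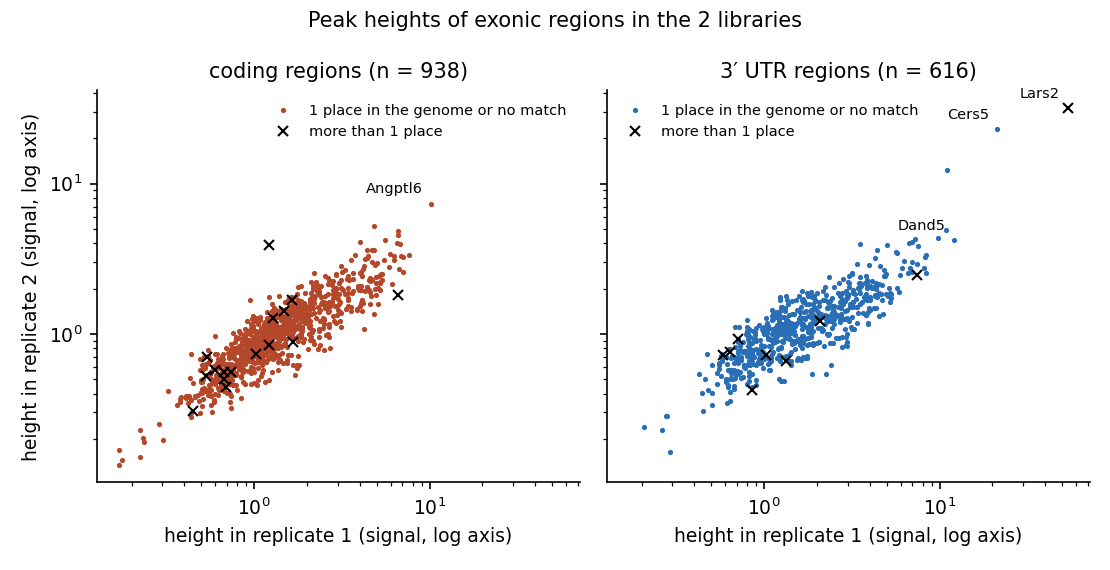
Height of each coding region (left) and 3′ UTR region (right) in replicate 1 (x) and replicate 2 (y), in the authors' signal units on log axes; crosses are regions found at more than 1 place in the genome. Heights follow each other between the animals, and the 3′ UTR regions of Lars2 (53.8 and 31.7) and Cers5 (21.3 and 23.1) stand above all others.

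Regions were ranked by the geometric mean of their heights in the libraries. The highest coding region, first in each library, lay in exon 2 of 6 of Angptl6, which encodes a secreted angiopoietin-like protein (chr9:20878161-20878520, minus strand, centre at codon 85 of 457). Its height was 10.2 in replicate 1 and 7.35 in replicate 2, and it held 5 footprints called in both libraries, all within coding sequence. Next by the geometric mean came exon 2 of Crlf2, a cytokine receptor gene (chr5:109557441-109557720, 6.64 and 4.86), the last exon of Fbxl22, an F-box protein gene (chr9:66511661-66512020, 6.57 and 4.55), and the last exon of the zinc finger gene Zfp771 (chr7:127254021-127254340, 6.82 and 3.99, 6528 bp from any start). The others among the 12 highest were in Stk35 (a kinase gene, 6.54 and 4.02), Rsad1 (7.59 and 3.37), Bcat2 (the mitochondrial branched-chain aminotransferase, 4.85 and 5.23), Psmc2 (a proteasome ATPase, 5.57 and 4.23) and Gdf15 (a stress-induced cytokine, 7.05 and 3.25). They also included Spi1 and Klf1, which encode the myeloid factor PU.1 and an erythroid factor (6.91 and 3.29, 6.31 and 3.30), and Hey1 (5.97 and 3.38). Of the 12, 11 were higher in replicate 1 in the deposited scale and Bcat2 in replicate 2. In that scale the median over all shared regions was also higher in replicate 1 (1.54, and 1.14 in replicate 2). After centring on this shift, the log2 ratio of replicate 2 to replicate 1 was 0.50 at Bcat2, 0.00 at Psmc2 and between -0.78 and -0.06 at the other 10. All 12 regions were found at 1 place in the genome. In the order named, their centres lay 1386, 1108, 2752, 6528, 1024, 4461, 3900, 1448, 2174, 2903, 1263 and 1904 bp from a start. The median over all coding regions was 3773 bp by the rows of replicate 1.

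The highest 3′ UTR region, and the highest exonic one, lay in Lars2, the gene of the mitochondrial leucyl-tRNA synthetase (chr9:123461901-123462100, 323 bases after the stop codon), with heights of 53.8 in replicate 1 and 31.7 in replicate 2. Its sequence matched 2 places in the genome, so reads behind this height cannot be assigned to Lars2 with certainty. The search took in the mitochondrial genome, and where the other place lies is not given here. The region in Cers5, a ceramide synthase gene (chr15:99735661-99736040, 21.3 and 23.1), had 4 footprints in replicate 1 and 3 in replicate 2, and none of them overlapped between the libraries. Ubqln1, a ubiquitin-shuttle gene (chr13:58177621-58177820, 11.0 and 12.4), followed. Both were higher in replicate 2. The 5 others among the 8 highest were Slc16a5 (10.9 and 4.91), Dand5 (a secreted Nodal antagonist, 12 and 4.22), Rtn2 (a reticulon, 9.84 and 4.34), Skap2 (an adaptor protein, 7.22 and 4.26) and Frmd8 (7.49 and 3.84), all higher in replicate 1, with centred log2 ratios of -1.12 to -0.37.

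By the geometric mean the 44 regions of 5′ UTRs were led by Sf3b5, which encodes a subunit of the splicing factor SF3b (chr10:13008341-13008560, 7.14 in replicate 1 and 4.83 in replicate 2). A930004D18Rik (7.47 and 3.84, the highest in replicate 1), the overlapping genes B430305J03Rik and Rap2b, the second a small GTPase gene (chr3:61364381-61364660, 5.63 and 4.42), and Pura (5.33 and 4.30) followed. Another region close by had its centre in the coding part of B430305J03Rik (chr3:61363581-61364100, 4.03 and 4.11). It held 10 footprints called in both libraries, 5 of them wholly in coding sequence. All 4 of the 5′ UTR regions named lie in long exons, of 3046 to 6793 bp.

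Some genes carried several exonic regions. Of the 1523 genes, 1308 had 1 region, 167 had 2, 35 had 3 and 13 had more. Tchh, which encodes trichohyalin, a repeat-rich protein of hair follicles, had the most, with 9 rows in its large coding exon (chr3:93443502-93447880) that formed 6 separate runs. Their heights were low, 0.407 to 1.70 in replicate 1 and 0.387 to 1.45 in replicate 2, and no promoter region of the gene was called in both libraries. Pcdh17 and Pcdh10, which encode protocadherins outside the clusters, had 6 and 5 rows in their first exons, in 3 and 2 runs. Their heights ranged from 0.760 to 1.88 and from 1.17 to 1.52 in replicate 1, and from 0.460 to 1.18 and at 1.11 in replicate 2. The replicate 2 height is that of the highest overlapping row there. Neighbouring rows of a gene can thus repeat the same replicate 2 value, which is then no separate measurement. Scrt1, the gene of a neuronal zinc finger repressor, had 5 separate regions in its last exon, up to 2.10 and 1.87. Lrrc4b (a synaptic adhesion gene, 5 rows in 2 runs), Pnmal2 (5 in 3), Inka2 (5 in 4) and Otx1 (a homeobox gene, 5 in 4) were the other genes with 5. Of the 5 genes with 4 regions, Aak1 (a kinase gene) and Efnb2 (the ephrin B2 gene) had the highest peaks, each with 4 separate runs. Of these 10 genes, all but Tchh had an open promoter in both libraries.

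More broadly, 1168 of the 1523 genes with an exonic region (76.7%) had a promoter region called in both libraries, against 60.8% of all 21938 protein-coding genes. For genes with a coding region the share was 73.5% (600 of 816) and for genes with a 3′ UTR region 79.0% (452 of 572). The remaining genes had open exonic sequence with no promoter region called in both animals. Rows close together were more frequent in exons as well: 27.5% of coding and 17.5% of 3′ UTR regions had another shared row within 500 bp, against 12.8% of intronic ones and 48.3% of promoter ones. The neighbour could be a row of any part, promoters included. Overlapping rows of the list were counted too, and 8.53% of coding, 2.44% of 3′ UTR, 1.57% of intronic and 7.94% of promoter rows overlapped another.

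In base composition coding regions lay between promoters and introns. Their median GC content was 59.5% ± 0.0589 and their median CpG ratio, observed over expected, 0.570 in both libraries. The 3′ UTR regions had a GC content of 54.4% ± 0.208 and a CpG ratio of 0.296 ± 0.000904. Promoter regions had 63.9% ± 0.325 and 0.767 ± 0.00530, and intronic regions 52.7% ± 0.360 and 0.271 ± 0.000251. Of the coding regions 45.1% ± 1.25 had both a GC content over 50% and a CpG ratio over 0.6, and of the 3′ UTR regions 10.9% ± 0.953, against 6.39% ± 0.581 of intronic and 69.4% ± 0.573 of promoter regions. The composition of all coding, UTR and intron sequence, open or not, was not measured for comparison. What part base composition had in the densities was not tested.

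Most exonic regions were footprinted. A footprint called in both libraries, meaning that footprints of the libraries overlapped, was found in 701 of 938 coding regions (74.7%, 95% exact binomial interval 71.8 to 77.5) and 523 of 616 3′ UTR regions (84.9%, 81.8 to 87.6). The share was 83.5% in introns and 82.2% over all 51642 regions. Intervals here cover counting error only. The difference of coding from intronic regions was found among low peaks. All shared regions were split by geometric mean height into 4 classes of equal number. In the lowest class 48.4% of 310 coding and 57.7% of 142 3′ UTR regions had such a footprint, against 65.0% of 4004 intronic regions. In the highest height class the shares were 100% of 100 coding, 99.0% of 100 3′ UTR and 99.5% of 1325 intronic regions. The coding regions held 1532 footprints of replicate 1 that overlapped one of replicate 2. Of these, 1290 (84.2%) lay wholly in coding sequence, and 650 coding regions (69.3%) held at least 1 of them.

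**Figure D4:**
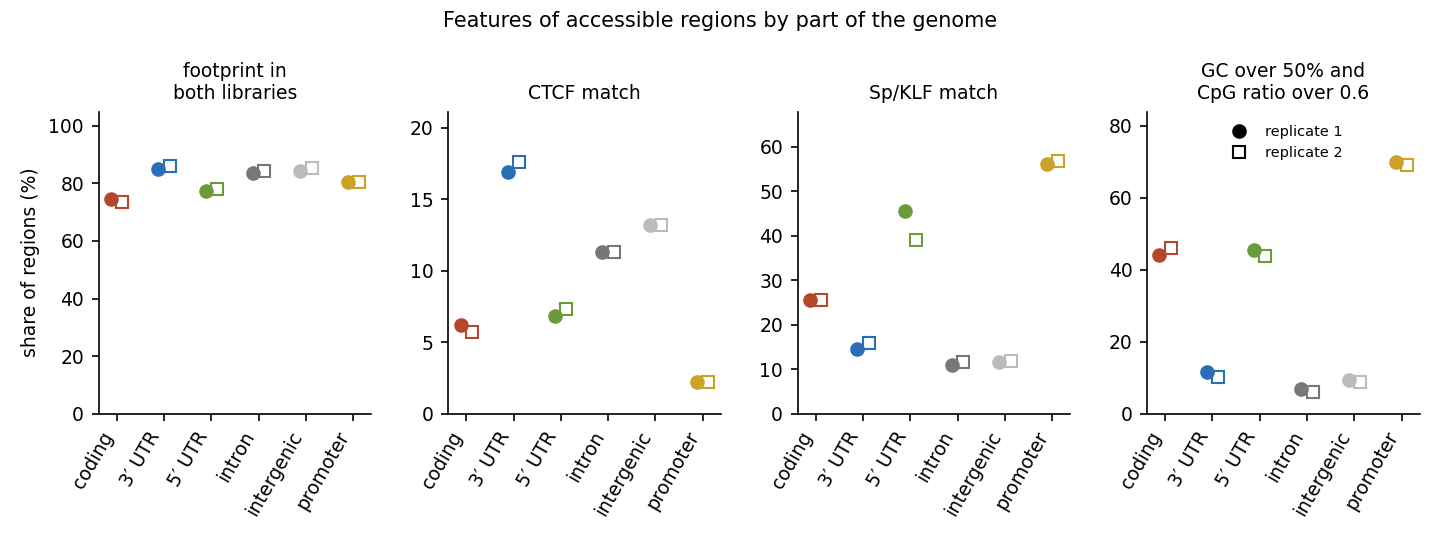
Share of regions (y, %) with a footprint in both libraries, a CTCF match, an Sp/KLF match, and a GC content over 50% with a CpG ratio over 0.6, by part of the genome (x); filled points are rows of replicate 1 and open squares rows of replicate 2. For CTCF the 3′ UTR regions (16.9% and 17.6%) lie above all other parts and the coding regions (6.18% and 5.71%) below introns, while for CpG content coding and 5′ UTR regions lie between introns and promoters.

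Few of the longest footprints within coding sequence covered a searched motif. Among the 12 highest coding regions and the 6 with the most shared footprints, 11 had a longest shared coding footprint of at most 30 bp, and the 30-base window around it held a searched motif in 2 of the 11. The 4 windows below, both of those and 2 of the 9 others, are 30 bases on the gene's strand, with the longest such footprint of replicate 1 in capitals. They come from 2 of the highest coding regions and 2 of the regions with the most footprints.
Crlf2, chr5:109557641-109557670, minus strand: tctGGAACGCGCTGACGTCACGGGCTGCtc
Zfp771, chr7:127254096-127254125, plus strand: aagCCGTACGCATGCGCACACTGTGGGcgg
Hcrt, chr11:100761929-100761958, minus strand: gGACGGCTGCAGCGCCTCCTTCAGGCCAAc
Tbr1, chr2:61811646-61811675, plus strand: gaTCGTGCCCGGCGCCCGCTACGCCATggc
The Crlf2 footprint was 25 bp long in replicate 1 and 18 bp in replicate 2, and holds TGACGTCA, the cAMP response element bound by CREB, which occurred in 0.536% ± 0.00406 of coding regions and 1.46% ± 0.0373 of all regions (both strands searched). The Zfp771 footprint (24 bp and 11 bp) holds GCGCATGCG, the site of nuclear respiratory factor NRF1, on one of its strands, and the Sp/KLF letters GGGCGG run over its end. That site was present in 1.07% ± 0.160 of coding regions and in 1.34% ± 0.0190 of all regions. No searched motif was present in the Hcrt and Tbr1 windows. Hcrt, the gene of the orexin neuropeptides, had 7 shared footprints in a coding region of 240 bp (chr11:100761801-100762040, 5.47 and 3.09), whose centre lies 1007 bp from a start. Tbr1, a transcription factor gene of deep-layer cortical neurons, had 9 in a low region of 1020 bp in its last exon (chr2:61811381-61812400, 1.42 and 0.976). The other coding regions with the most shared footprints were in B430305J03Rik (10), Tchh (10), Fam43a (10) and Ccdc92b (8). Hcrt was the highest of the 4 coding regions with 7. The regions with 8 or more were 520 bp or wider, and wide regions have more room for footprints.

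CTCF matches nearly all overlapped footprints, and they were more frequent in 3′ UTR regions than in coding regions. A match was found in 58 of 938 coding regions (6.18%, 95% exact binomial interval 4.73 to 7.92) and 104 of 616 3′ UTR regions (16.9%, 14.0 to 20.1), against 11.3% of intronic, 13.2% of intergenic and 2.23% of promoter regions and 7.73% of all regions. The share was larger in the upper height classes than in the lowest. In the highest height class it was 16.0% of coding and 31.0% of 3′ UTR regions, against 27.1% of intronic ones. In the lowest height class it was 3.23% and 4.23%, against 3.75%. A match overlapped by a footprint of each library was present in 55 of the 58 coding and 103 of the 104 3′ UTR regions. Of single matches, 94.8% in coding regions and 99.0% in 3′ UTR regions overlapped a footprint of each library, against 97.3% in intronic regions.

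**Figure D5:**
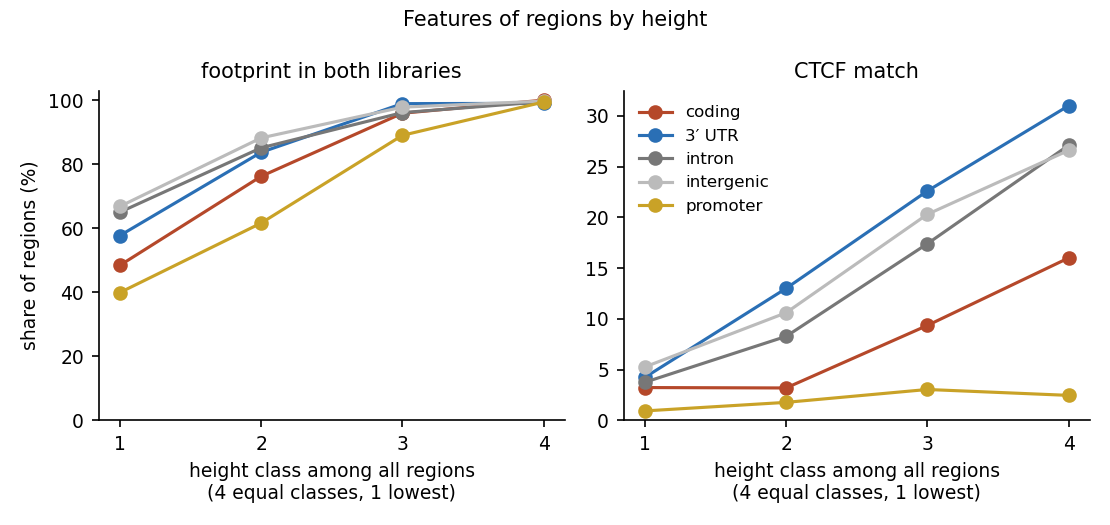
Share of regions with a footprint called in both libraries (left) and with a CTCF match (right) (y, %) by class of geometric mean height among all shared regions (x, 4 classes of equal number, 1 lowest), for coding, 3′ UTR, intronic, intergenic and promoter regions. The footprint share grows from class to class in all 5 parts. The CTCF share of coding regions is level in the first classes (3.23% and 3.19%) and reaches 16.0% in the highest, below the 31.0% of 3′ UTR regions, while promoters stay between 0.927% and 3.04%.

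CTCF matches in exonic regions lay on both strands, and those within coding sequence at each codon position. Of the 58 coding regions, 25 had the match on the sense strand of the gene, as did 42 of 104 in 3′ UTRs. In 51 coding regions the match lay wholly within coding sequence, and its 5′-most base on the gene's strand fell at codon position 1 in 9, at position 2 in 18 and at position 3 in 24. Among the regions whose windows are printed above, the one in Pgls had heights of 7.03 in replicate 1 and 2.59 in replicate 2, Crh 4.93 and 2.18, Dgki 5.13 and 2.42, and Synpo2l, an actin-associated gene of muscle, 4.38 and 3.61. Epg5, an autophagy gene, had 6.66 and 2.70 in exon 32 of 44. After centring, Synpo2l lay toward replicate 2 (log2 ratio 0.11), and Hey1, Crh, Dgki, Pgls, Epg5 and the 3′ UTR regions of Skap2, Dand5 and Frmd8 lay toward replicate 1 (-1.12 to -0.37).

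Other motifs divided coding from 3′ UTR regions in other ways. The Sp/KLF site GGGCGG, typical of CpG-rich promoters, was present in 25.6% ± 0.0336 of coding, 15.2% ± 0.864 of 3′ UTR and 42.2% ± 4.55 of 5′ UTR regions, against 11.2% ± 0.385 of intronic and 56.5% ± 0.440 of promoter regions. The AP-1 site TGANTCA, bound by Fos and Jun, was present in 5.63% ± 0.118 of coding and 9.71% ± 1.11 of 3′ UTR regions, against 11.8% ± 1.25 of intronic ones. CAGATG, an E-box bound by NeuroD factors, was present in similar shares, 23.3% ± 0.354 of coding and 23.5% ± 1.75 of 3′ UTR regions, against 25.6% ± 1.84 in introns. These are shares of regions, not adjusted for width. Median widths in replicates 1 and 2 were 200 and 220 bp in coding regions and 240 and 260 bp at promoters. In 3′ UTR and intronic regions they were 180 and 200 bp. GGGCGG and the other letters were searched on both strands, and short motifs occur often without being bound. In coding regions 24.6% of 349 Sp/KLF matches and 18.9% of 259 E-box matches overlapped footprints of both libraries, against 43.5% and 29.0% in introns. Longer matches touch footprints more easily, and the shares were not adjusted for match length. In 3′ UTRs the shares were 51.6% and 33.3%.

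The animals differed most at a few exonic regions. Among the largest centred log2 ratios at exonic regions higher than the exonic median, of replicate 2 to replicate 1, were those at Gm11168 (2.07, heights 3.88 in replicate 2 and 1.22 in replicate 1), 7530416G11Rik (1.21), the tropomyosin gene Tpm1 (0.92) and the netrin-G1 gene Ntng1 (0.92). The sequence of the Gm11168 region consisted wholly of annotated repeat and matched 93 places in the genome, the most of any exonic region. The largest ratios to the other side were at Gm3045 (-1.59, 1.07 in replicate 2 and 4.21 in replicate 1), Adgrg5 (-1.56), Clca3b (-1.48), Acpp (-1.44) and Vwce (-1.44). Over all exonic regions 94.3% lay within 1 log2 unit of the median. Of the 1799 regions 26 (1.45%) matched more than 1 place in the genome, and reads from such places cannot be assigned with certainty.

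Among the gene lists immediate early genes, which neuronal activity switches on rapidly, had the largest share of genes with an exonic region. Of 20 such genes 8 had at least 1 (40%): Arc, Egr3, Egr4, Fosb, Ier2, Jun, Junb and Klf4. That is 215 regions per Mb of exonic sequence over 1 kb from starts, against 6.94% of all protein-coding genes and 26.2 per Mb. Their total was 12 regions in 55.8 kb. The highest were in the 3′ UTRs of Fosb (chr7:19303861-19304060, 2.87 in replicate 1 and 1.07 in replicate 2) and Jun (chr4:95049981-95050180, 1.87 and 1.18) and the coding sequence of Junb (chr8:84977681-84977740, 1.54 and 1.21). All 3 encode AP-1 subunits, and their centres lay 3191, 1453 and 1007 bp from a start. Replication-dependent histone genes had 5 regions in 21.9 kb (229 per Mb), in 3 of 67 genes, led by Hist1h1c (3.52 and 3.94) and Hist1h1d (3.09 and 1.92). The centres of these regions lay 1013 and 1769 bp from a start. The densities of the lists were not matched for distance. Over all genes, coding sequence 1 to 2 kb from a start held 71.0 and 72.7 regions per Mb by the rows of replicates 1 and 2.

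Other neuronal and regulatory lists ranged widely, from 0 in interneuron, Hox and clustered protocadherin genes to 74.7 exonic regions per Mb, against 26.2 per Mb over all genes. Of the cortical excitatory neuron genes 3 of 20 had an exonic region, with 8 regions in 112 kb (71.7 per Mb). The highest of each gene, in Tbr1, Neurod2 (1.29 and 0.954) and Pou3f2 (1.14 and 1.04), lay in coding sequence. Overlapping rows of a gene were each counted in the densities of the lists. Of the ion channel genes 29 of 134 had one (60.3 per Mb), with high regions in Kcnq3 (3.87 and 1.96) and Scn8a (3.05 and 1.22). Of the glutamate and GABA receptor genes 9 of 45 had one (50.1 per Mb), led by the GABA-B receptor subunit gene Gabbr2 (2.55 and 2.42), the metabotropic receptor gene Grm2 (3.18 and 1.54) and the kainate receptor gene Grik5 (2.25 and 1.81). Fox, Sox, Pou, Lhx and Irx transcription factor genes had 22 regions in 14 of 92 genes (74.7 per Mb), with the 3′ UTR of Lhx5 (6.79 and 2.73), the coding sequence of Sox8 (3.96 and 1.96) and the 3′ UTR of Sox12 (2.34 and 2.40) highest. Synaptic scaffold and vesicle genes had 7 regions in 6 of 29 genes (31.6 per Mb), led by the 3′ UTR of Shank1 (6.69 and 4.0), the coding sequence of Unc13a (4.68 and 2.99) and an exon of Syp (3.05 and 1.72). In cytoskeleton and axon genes there were 5 regions in 4 of 20 (24.5 per Mb), in Dst (6.05 and 1.87), Ank3 (3.47 and 1.66), the tau gene Mapt (1.81 and 1.5) and Dync1h1. Chromatin regulators had 6 in 5 of 27 (25.9 per Mb), the highest in Setd1b (5.62 and 2.45), Kmt2a (2.26 and 1.28) and Ncor1 (1.48 and 1.41). The regions named in Kcnq3, Syp, Dst, Ank3 and Setd1b lay in exons of transcripts with no coding sequence.

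The glial lists hold little exonic sequence and few regions. Of 14 oligodendrocyte lineage genes 2 had a region (14.3%, 55.5 per Mb, against 6.94% and 26.2 per Mb over all genes), Nkx2-2, a homeobox factor of the lineage, in coding sequence (5.09 and 2.01) and Mobp, a myelin protein gene, in the 3′ UTR (1.81 and 1.05). Of 12 astrocyte genes 1 did (8.33%, 41.6 per Mb), the intermediate filament gene Gfap (0.705 and 0.752). None was found in 16 interneuron genes (58.1 kb of exonic sequence), 18 genes of microglia, vessels and meninges (60.3 kb), 16 housekeeping genes (26.1 kb), 39 Hox genes (48.1 kb) or 57 clustered protocadherin genes (200 kb). Most of these lists hold little exonic sequence, and a count of 0 in so short a length says little. Genes of liver, muscle and gut had 2 regions in 159 kb (12.6 per Mb), in the apolipoprotein gene Apoa1 (4.27 and 3.14) and the insulin gene Ins2 (0.553 and 0.606).

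Large families also differed. Olfactory receptor genes had 3 regions in 2181 kb, the lowest density above 0 at 1.38 per Mb, in Olfr1410 (1.12 and 0.875), Olfr1382 (0.584 and 0.729) and Olfr95 (0.681 and 0.482). Zinc finger genes with the symbol Zfp had 25 regions in 22 of 394 genes (16.0 per Mb), led by Zfp771, Zfp219 (6.31 and 3.09) and Zfp444 (5.10 and 1.78). Solute carriers had 42 in 41 of 371 (31.7 per Mb), led by Slc16a5, Slc4a3 (6.99 and 4.06) and Slc43a2 (5.69 and 3.43). Kinesins and myosins had 13 in 10 of 64 (33.8 per Mb), led by Kif26b (4.0 and 2.54), Kif19a (4.13 and 1.68) and Kif27 (2.51 and 1.26). Collagens had 7 in 7 of 45 (24.1 per Mb), with Col4a3 (3.92 and 1.18), Col15a1 (1.34 and 1.21) and Col4a2 (1.09 and 1.06) highest, and ribosomal protein genes had 1, in the 3′ UTR of Rpl22 (1.95 and 1.27), among 82 genes.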

How the data were processed

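DNase-seq of left cerebral cortex from 2 mice was analysed from deposited files. Per the deposited read-me text, the authors called peaks and footprints per library on mm10; the aligner and both callers are not given in the sources used. Peak height is a signal value of the authors in an unstated scale, and the deposited false discovery rates of the cut rate are adjusted p-values, listed under 0.05. The shorter of the 2 deposited peak lists of each library was used, in which every row called in both libraries held a position under a rate of 0.001. The footprint score is constant, so only positions were used. Positions, parts and motifs were read from GRCm38 and GENCODE M21 with Python 3.11.15, pysam 0.24.0 and bedtools 2.31.1. A region was coding, then 5′ UTR, then 3′ UTR, in that order. Near-identical places were found with blastn 2.17.0 (at least 95% identity over 80% of the row). Overlap, part calls and motif search were checked on simulated data. No samples were compared, so no test was run. Each row of replicate 1 was paired with the height of the highest row of replicate 2 that it overlapped. Ratios of heights were centred on the median of all shared regions.

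Members, gene lists, motifs and marker lists were chosen with earlier results of these data known. Named regions are the 12 highest (geometric mean of both heights) coding, 8 3′ UTR and 4 5′ UTR regions, the 10 genes with most regions, the 5 largest height ratios to each side, up to 3 members of each gene list, the 6 coding and 3 3′ UTR regions with a footprinted CTCF match, and the 6 coding regions with most shared footprints. A few of the regions chosen this way are not reported here. Alternatives covered the library supplying rows, overlap, peak list, height, distance, starts, transcripts, exonic share, order of parts, motif window and each library alone.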

Additional observations from a re-analysis of the deposited data

How the results depend on the processing

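Coding sequence stayed above introns in density under each alternative that gave a ratio, at 2.54 to 3.29 times, and 3′ UTRs at 1.43 to 1.88 times, against 2.87 and 1.54 as reported; no ratio was computed without regions at more than 1 place. The share with a CTCF match was higher in 3′ UTRs than in coding regions under each alternative that was run. In each list below the values come in the order of coding then 3′ UTR regions. By the rows of replicate 2, 3.49% of shared regions were exonic, 73.5% and 85.9% had a footprint in both libraries, 5.71% and 17.6% a CTCF match, the median heights were 0.942 and 1.10, and the ratios to introns 2.85 and 1.55. With at least 50% of each row covered by the other, the exonic share was 3.34%, footprints 84.3% and 91.0%, CTCF 7.77% and 19.7%, the coding height 1.46, and the ratios 2.58 and 1.58. The longer lists gave 3585 exonic regions, 1896 coding and 1205 in 3′ UTRs, with an exonic share of 4.13%, footprints in 57.0% and 67.3%, CTCF in 4.06% and 10.9%, heights of 0.803 and 0.918, and ratios of 2.77 and 1.44. Above the median height in both lists there were 906, of which 430 were coding, 341 in 3′ UTRs and 26 in 5′ UTRs, with a share of 3.09%, footprints in 93.5% and 97.4%, CTCF in 9.30% and 23.5%, heights of 1.95 and 2.43, and ratios of 2.91 and 1.88. Over 2 kb from starts the 5′ UTR regions numbered 17, the exonic share was 2.55%, footprints 79.4% and 85.7%, and the ratios 2.54 and 1.60. With starts of protein-coding genes only, the exonic share was 3.70%, the 3′ UTR share with CTCF 16.3% and the coding ratio 2.92. With basic coding transcripts the share was 3.04% and the coding ratio 2.85, and with at least 50% of the row exonic 3.39% and 2.74. Without replicate 1 or without replicate 2, the exonic regions numbered 2560 to 3053, coding 1318 to 1602 and 3′ UTR 886 to 1058. The exonic share was then 3.70% to 4.41%, footprints 50.6% to 59.2% and 57.7% to 68.4%, CTCF 4.17% to 4.68% and 11.8% to 13.1%, heights 0.757 to 0.894 and 0.886 to 0.985, and ratios 2.60 to 3.29 and 1.43 to 1.78. The causes of these moves were not tested. Searching 200 bp around the centre moved neither CTCF share by more than the SD between replicates. Placing 3′ UTR before coding sequence gave 840 coding, 42 5′ UTR and 716 3′ UTR regions, against 938, 44 and 616. Run for the other values after the data were seen, it gave coding footprints of 73.6%, CTCF in 6.55% and 14.9%, and ratios of 2.93 and 1.62. After the data were seen, overlapping rows were counted once, which gave a share of 3.45%, coding footprints of 76.0% and a coding ratio of 2.76, and regions at more than 1 place were left out, which gave a share of 3.43%. No paired analysis was possible because there is 1 group, and a paired comparison of parts over 2 libraries could not go below an exact permutation p of 0.5. Unknown depth limits statements on low regions, where footprints were called least often.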

Other observations

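Exons of genes that code for no protein were no part of the set. Of the regions called in both libraries, 390 had their centre in such an exon over 1 kb from every start.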
